A study of Mus musculus with 11 samples.

Results

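The genes described here are the serpins, the family of serine protease inhibitors and their relatives, in the livers of ovariectomized female mice given follicle-stimulating hormone (FSH) or saline. Members were all rows of the deposited table whose mouse gene symbol starts with Serpin, without corticosteroid-binding globulin (Serpina6) and without pseudogenes whose names contain -ps. Of 68 rows with such a symbol, 5 pseudogene rows and the 1 Serpina6 row were left out, which gave 62 members among 36788 gene identifiers in all. RNA-seq was made from whole liver of wild-type C57BL/6 females over 12 weeks old, all of them ovariectomized and fed a high-fat diet, so the controls carry the surgery and the diet too. The FSH group held 5 mice (numbered 1, 2, 3, 4 and 6), which received recombinant FSH daily, and the saline group held 6 mice (1 to 6). There were no mice with ovaries and none on ordinary chow in these libraries, and the labels name no batch.

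Serpins that inhibit proteases do so with an exposed reactive centre loop, which the protease cleaves at the bond between the residues called P1 and P1′, after which the serpin traps it. The liver makes most of the serpins found in plasma, among them alpha-1-antitrypsin, antithrombin, alpha-2-antiplasmin and C1 inhibitor, and several of them belong to the acute-phase response. A few serpins inhibit nothing and serve as hormone carriers or chaperones, and the clade B serpins stay inside the cell. Mice have several alpha-1-antitrypsin genes and a large Serpina3 cluster on chromosome 12, where the loop is the stretch in which the copies differ most in what they inhibit.

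The loop coding sequences of the members on which the results turn are shown because the copies are close relatives whose reads have to be told apart by such differences. They come from the GENCODE M21 transcripts (GRCm38), run from the codon of the hinge glycine over 60 bases, and have in capitals the P1 and P1′ codons, counted 14 residues on from that glycine. The antitrypsin loops and that of Serpinb1a lie on the minus strand (chr12:103853771-103853830 for Serpina1a, chr12:103728338-103728397 for Serpina1b, chr12:103895108-103895167 for Serpina1c, chr12:103763776-103763835 for Serpina1d, chr12:103947114-103947173 for Serpina1e and chr13:32842911-32842970 for Serpinb1a). Those of Serpina3k (chr12:104345269-104345328) and Serpina3n (chr12:104413448-104413507) lie on the plus strand.
Serpina1a: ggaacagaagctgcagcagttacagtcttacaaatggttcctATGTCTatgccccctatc
Serpina1b: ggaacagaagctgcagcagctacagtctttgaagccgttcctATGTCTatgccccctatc
Serpina1c: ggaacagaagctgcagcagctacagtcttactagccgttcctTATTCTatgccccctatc
Serpina1d: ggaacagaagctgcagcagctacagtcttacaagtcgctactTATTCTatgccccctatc
Serpina1e: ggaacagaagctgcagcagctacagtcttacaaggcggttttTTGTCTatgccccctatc
Serpina3k: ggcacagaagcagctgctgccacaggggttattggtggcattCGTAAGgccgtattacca
Serpina3n: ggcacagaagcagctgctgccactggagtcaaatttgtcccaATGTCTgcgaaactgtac
Serpinb1a: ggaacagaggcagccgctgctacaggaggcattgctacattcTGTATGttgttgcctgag
Serpina1a and Serpina1b had the same capitals and differed in 6 of the 60 bases, and Serpina1c and Serpina1d shared another pair of codons and differed in 4. Serpina3k and Serpina3n differed in 25 of 60 bases, and Serpina3k and Serpina3m, whose loop is not shown, in 14. All pairs of the 5 antitrypsin loops differed in between 4 and 8 bases.

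Near their start sites the antitrypsin genes were more alike still. The 56 bases around the letters GTTAAT (in capitals), which are part of the binding motif of the liver factor HNF1, are given for GRCm38.p6 from RefSeq, all on the minus strand and all before the annotated start.
Serpina1a (chr12:103863625-103863680): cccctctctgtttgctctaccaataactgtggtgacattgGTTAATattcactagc
Serpina1d (chr12:103773634-103773689): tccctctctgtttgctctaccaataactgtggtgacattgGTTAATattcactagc
Serpina7 (chrX:139085278-139085333): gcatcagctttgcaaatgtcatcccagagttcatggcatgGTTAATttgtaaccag
Serpina1b, Serpina1c and Serpina1e did not differ from Serpina1a in any of these 56 bases, and Serpina1d differed in 1. The letters were looked for on both strands of the 300 bases around each start (250 before and 50 after), and they were found for 7 of the 21 expressed members with a promoter in the RefSeq table (the 5 antitrypsin genes, Serpina7 and Serpinb8), against 7.10% of all 32851 promoters in the table. The 5 antitrypsin genes are copies of one another, so they do not count as separate finds, and a match of letters is not a measured binding site. Promoters of 6 expressed members, Serpinb1a and Serpina3k among them, were not looked at here.

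Values are CPM, a gene's reads out of every 1000000 that its library held on genes. Libraries held between 10801891 and 19909327 reads on genes, and 3 reads, the limit that a count of 0 allows for counting error, correspond to 0.151 CPM in the deepest and 0.278 CPM in the shallowest library. Hepatocyte markers (5 of 6 measured) summed to between 90110.5 and 110882 CPM in FSH livers and between 82938.8 and 113272 CPM in saline livers. The sums of macrophage markers (135 to 345 CPM with FSH, 208 to 409 with saline), endothelial markers (136 to 205 and 163 to 190) and stellate or fibroblast markers (223 to 335 and 264 to 378) overlapped between the groups as well, though Cd68 of the first list and Lyve1 of the second fell. B cell markers (15.6 to 28.0 CPM with FSH, 12.6 to 26.9 with saline, Ighm rose), cholangiocyte markers (48.0 to 70.4 and 38.6 to 56.9, Krt7 rose), erythroid genes (464 to 790 and 425 to 1010) and pancreatic acinar genes (0.613 to 1.62 and 0.187 to 0.837, with Prss2, Pnlip, Cel and Try4 at 0) gave overlapping sums too. The median log2 fold change (FSH minus saline) was -0.42 for macrophage, -0.22 for endothelial and -0.27 for stellate or fibroblast markers. For cholangiocyte markers it was 0.24. The part of these cell types in the results on serpins was not tested. In bulk liver, fewer cells of a type and less RNA per cell cannot be told apart.

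Liver serpin transcripts were dominated by few genes. All 62 members together took 2.83% ± 0.09 (SD, n = 5) of the reads in FSH livers and 3.0% ± 0.06 (SD, n = 6) in saline livers, and the highest FSH liver (2.93%) lay below the lowest saline liver (2.95%). The summed difference of 1722 CPM between the group means was a net of members that were lower and higher with FSH. Serpina3k was lower by 1229 CPM, Serpina1a by 473 CPM and Serpina1c by 295 CPM, while Serpina1d was higher by 653 CPM (4102 against 3450 CPM). The alpha-1-antitrypsin genes Serpina1a to Serpina1e held between 60.3% and 67.9% of all serpin CPM in the 11 livers. Per kilobase of annotated exon sequence (the union of all GENCODE M21 exons of a gene), mean levels over all livers were highest for Serpina1c (3260 CPM per kilobase), Serpina1d (2688), Serpina1b (2665), Serpina1a (2234) and Serpina3k (1521). By this length, the order of Serpina1d and Serpina1b turned between the groups: in FSH livers Serpina1d was at 2943 and Serpina1b at 2639 CPM per kilobase, and in saline livers they were at 2475 and 2687. The next members were much lower, at 398 CPM per kilobase for Serpinf2, 352 for Serpinc1, 329 for Serpinf1 and 312 for Serping1. These ranks depend on the length chosen. The exon union of Serpina1b is 2415 bases and a single coding transcript of it 1762, while Serpina1d has 1394 by both. For Serpinc1 the lengths are 8546 and 4970 bases. In CPM, Serpina1b was above Serpina1d in every liver, so the turn belongs to the exon union length.

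**Figure D1:**
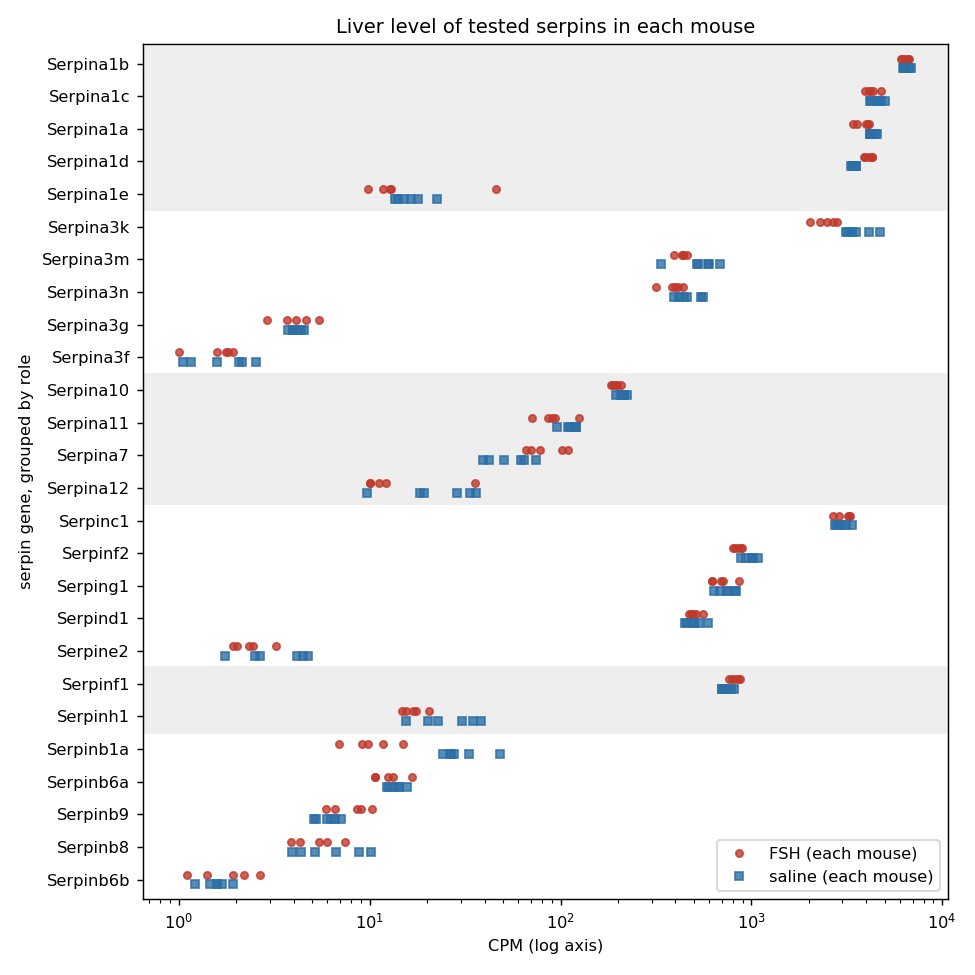
CPM of 26 of the 27 expressed serpins in each of 5 FSH livers (circles) and 6 saline livers (squares) on a log axis, with genes grouped by role in shaded and white bands. Levels run from 1.005 CPM for Serpina3f to 6878 CPM for Serpina1b, and within most genes the livers lie close together.

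Of the 62 members, 27 had a mean of at least 0.5 CPM and were tested among 12733 genes on log2(CPM + 0.5) with limma and Benjamini-Hochberg adjustment over all genes tested. Fold changes are FSH minus saline on that scale, which understates the change of low genes. With an adjusted p under 0.05, 3 of 27 members differed (11.1%), where 10.6% of all genes tested did, so the share among serpins was near the background. Serpina7 was the 1 member that rose (6.19% of all genes did), and Serpina3k and Serpinb1a were the 2 that fell (4.41% of all genes did). With the further requirement of an absolute log2 fold change over 1, Serpinb1a alone was left, where 1.83% of all genes passed. The values of FSH and saline livers did not overlap for 4 of 27 members (14.8%), Serpinb1a, Serpina3k, Serpina1a and Serpina1d, against 6.67% of all genes. In sign, 21 members were lower and 6 higher with FSH (77.8% lower, against 46.0% of all genes), and their median log2 fold change was -0.11 against 0.02 over all genes. Of the 13 tested members that lie at chr12:103614786-104414329 (GRCm38), 12 were lower in sign and Serpina1d was higher. Among the 12, Serpina1e, Serpina3g and Serpina3f changed sign in 5, 3 and 2 of the alternative fits. Mean CPM with FSH and saline was 18.6 and 16.6 for Serpina1e and 4.15 and 4.14 for Serpina3g, so their signs are not settled. The 13 neighbours are in part copies that can share reads, and no test was made of the list.

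**Figure D2:**
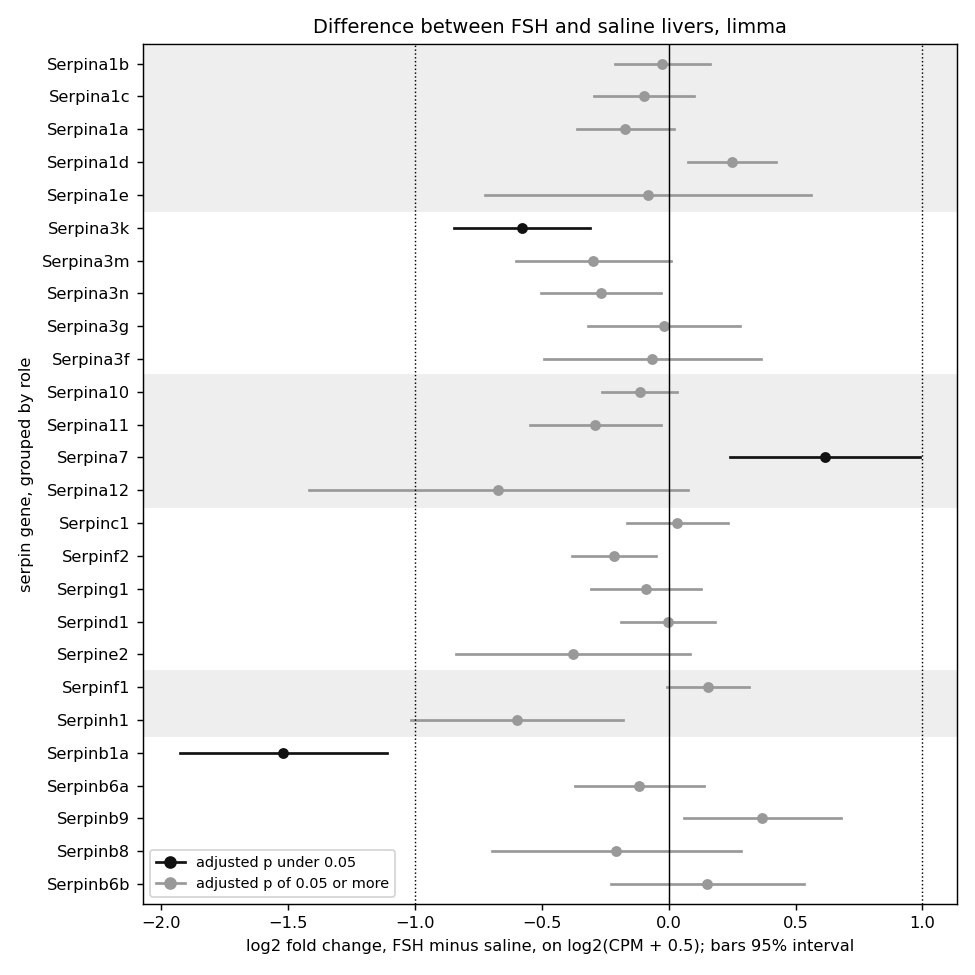
log2 fold change (FSH minus saline, on log2(CPM + 0.5)) of 26 of the 27 expressed serpins, each with its 95% interval from limma, grouped by role, with dotted lines at the fold change threshold of 1 in either direction. Black marks the 3 members with an adjusted p under 0.05, and Serpinb1a is the only one whose whole interval lies beyond -1.

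Serpinb1a, the leukocyte elastase inhibitor, which acts inside cells on neutrophil proteases such as elastase and cathepsin G, showed the largest change among the tested serpins. It was measured at 6.93, 9.15, 11.8, 9.75 and 14.99 CPM in FSH mice 1, 2, 3, 4 and 6, and at 24.1, 27.8, 47.9, 26.3, 26.8 and 33.2 CPM in saline mice 1 to 6. Every FSH liver was below every saline liver, and saline mouse 3 stood highest. The means were 10.5 ± 3.04 CPM (SD, n = 5) and 31.0 ± 8.82 CPM (SD, n = 6), and the log2 fold change was -1.52 (SE 0.19, limma adjusted p = 0.000169), or 2.87-fold lower with FSH. The exact permutation test over all ways to divide the libraries gave a 2-sided p of 0.00216, the smallest it can give. Serpinb1a (chr13:32842092-32851185, minus strand) overlaps no other annotated gene. Here and below, 100-base windows were cut from 1 annotated transcript of each gene, so exon sequence outside it was not checked. For Serpinb1a that transcript has 1918 bases, against 2303 in the union of its exons, and 100% of its windows occur in no other annotated gene. Neutrophil markers were near 0: the 8 markers summed to between 1.14 and 3.81 CPM in FSH livers and 0.913 and 4.35 CPM in saline livers, with Ly6g at 0 in all libraries and 2 of the 8 high enough to be tested and not called. Which cells hold the Serpinb1a transcripts was not tested.

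The other expressed clade B serpins did not pass the test. Serpinb9, the inhibitor of granzyme B, had a log2 fold change of 0.37 (8.06 CPM with FSH, 6.04 CPM with saline, limma adjusted p = 0.121), and without FSH mouse 6 its value was 0.47 with an adjusted p of 0.0403 (limma). Serpinb6a was at -0.12 (12.7 and 13.7 CPM), Serpinb8 at -0.21 (5.38 and 6.51 CPM) and Serpinb6b at 0.15 (1.86 and 1.57 CPM). The T or NK cell markers, the cells in which granzymes are made, summed to 2.51 to 5.17 CPM with FSH and 2.99 to 6.76 CPM with saline. Of 27 clade B members, 5 were tested, 5 had reads but too few, and 17 had no read in any library.

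The alpha-1-antitrypsin genes had like sums in both groups, while the shares of Serpina1d and Serpina1a in that sum did not overlap. By the loop sequences, P1 is methionine in Serpina1a and Serpina1b, tyrosine in Serpina1c and Serpina1d, and leucine in Serpina1e. The copies are therefore not taken here as equal inhibitors, and what each inhibits was not measured. Serpina1a to Serpina1e together reached 18605 ± 790 CPM (SD, n = 5) in FSH livers and 18833 ± 199 CPM (SD, n = 6) in saline livers, a difference within the range of the FSH livers alone (17330 to 19277 CPM). Serpina1d was at 4297, 4267, 3888, 4127 and 3932 CPM in FSH mice 1, 2, 3, 4 and 6 and at 3515, 3539, 3329, 3470, 3426 and 3420 CPM in saline mice 1 to 6. All FSH livers were above all saline livers, yet the log2 fold change was small, at 0.25 (SE 0.08), and missed the threshold (limma adjusted p = 0.0627, exact permutation p = 0.00216). Serpina1a was placed the other way, at 4125, 3998, 3411, 3559 and 4083 CPM with FSH and 4220, 4213, 4207, 4188, 4450 and 4570 CPM with saline, with a log2 fold change of -0.17 (SE 0.09, limma adjusted p = 0.253, exact permutation p = 0.00216). Here all FSH livers were below all saline livers, and FSH mouse 1 came closest to them.

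As a share of the antitrypsin sum, Serpina1d made up 20.5% to 22.7% in FSH livers and 17.9% to 18.8% in saline livers, and Serpina1a 19.3% to 21.4% and 22.1% to 24.1%. The ratio of Serpina1d to Serpina1a was 1.07 ± 0.08 (SD, n = 5) in FSH livers and 0.80 ± 0.04 (SD, n = 6) in saline livers, without overlap (0.96 to 1.16 and 0.75 to 0.84). A ratio within a library does not depend on how the libraries are scaled to each other. It does depend on whether reads shared by copies were divided or dropped in counting, which is not known here: 70.7% of the 100-base windows of Serpina1d and 50.1% of those of Serpina1a occur in no other annotated gene, against 79.4% for Serpina1b, 41.5% for Serpina1c and 85.2% for Serpina1e, and the Serpina1b gene model spans Serpina1d. Serpina1d passed the threshold with a filter at 2 CPM, with array weights and with DESeq2 (adjusted p = 0.0371, 0.0334 and 0.00211). It did not pass in the other 20 alternatives, where the adjusted p was 0.134 with TMM scaling, 0.131 with median-of-ratios scaling, 0.0884 with edgeR, 0.0652 with voom and 0.304, the highest of all, without a filter.

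**Figure D3:**
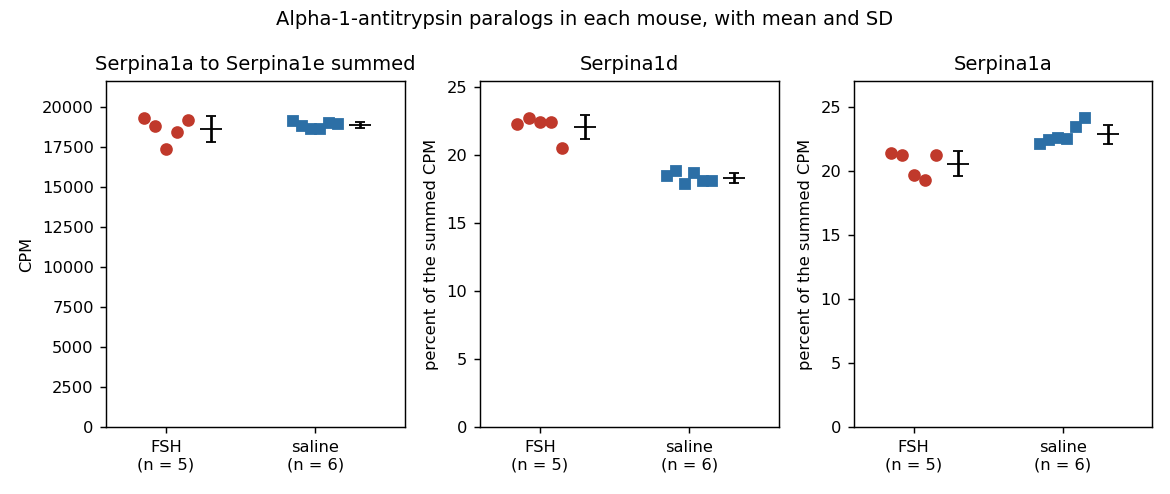
Alpha-1-antitrypsin genes in each FSH liver (circles, n = 5, in the order of mice 1, 2, 3, 4 and 6) and saline liver (squares, n = 6, mice 1 to 6), with mean and SD in black and all axes from 0. The left panel gives the summed CPM of Serpina1a to Serpina1e, which overlaps between the groups, and the other panels give Serpina1d and Serpina1a as percent of that sum, where the groups do not overlap.

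The other antitrypsin genes overlapped between the groups. Serpina1b, the highest of all serpins in CPM, was at 6669, 6142, 6062, 6597 and 6393 CPM with FSH and 6335, 6219, 6473, 6358, 6878 and 6666 CPM with saline (log2 fold change -0.03, SE 0.09, limma adjusted p = 0.894). The 95% interval of that fold change ran from -0.21 to 0.16, and the livers of both groups were mixed in their order. Serpina1c was at 4173, 4354, 3959, 4125 and 4770 CPM with FSH and 5007, 4807, 4592, 4565, 4193 and 4261 CPM with saline (log2 fold change -0.10, SE 0.09, limma adjusted p = 0.573). Saline mice 1 and 2 held the highest Serpina1c values and the other 4 saline livers lay within the range of the FSH livers. An antisense gene, B430119L08Rik, overlaps Serpina1c, and the use of strand in counting is not stated. Serpina1e was low, at 12.9, 46.0, 9.80, 11.7 and 12.7 CPM with FSH and 15.2, 22.6, 16.4, 13.6, 17.9 and 14.1 CPM with saline (log2 fold change -0.08, SE 0.30, limma adjusted p = 0.904). FSH mouse 2 stood far above all others, and the remaining 4 FSH livers were below all saline livers. Without that mouse the log2 fold change of Serpina1e was -0.47 (limma adjusted p = 0.0566).

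In the Serpina3 cluster, mouse relatives of the single human alpha-1-antichymotrypsin gene, Serpina3k fell and the other 4 expressed members were lower in sign without passing the test. Serpina3k, known as contrapsin, was at 2028, 2682, 2283, 2821 and 2480 CPM in FSH mice 1, 2, 3, 4 and 6 and at 3358, 4125, 3539, 4734, 3230 and 3144 CPM in saline mice 1 to 6. Every FSH liver was below every saline liver, and saline mice 2 and 4 were the highest. The means were 2459 ± 315 CPM (SD, n = 5) in FSH livers and 3688 ± 620 CPM (SD, n = 6), with a log2 fold change of -0.58 (SE 0.13, limma adjusted p = 0.00882, exact permutation p = 0.00216). The Serpina3m gene model overlaps Serpina3k in the annotation, and 95.1% of the 100-base windows of Serpina3k occur in no other gene.

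Serpina3n, an acute-phase member that inhibits granzyme B, was at 436, 397, 316, 384 and 413 CPM with FSH and 418, 559, 391, 545, 460 and 444 CPM with saline (log2 fold change -0.27, SE 0.11, limma adjusted p = 0.145, exact permutation p = 0.0519). The groups overlapped, and saline mice 2 and 4 were again the highest. Serpina3m was at 433 CPM with FSH and 543 CPM with saline on average (log2 fold change -0.30, limma adjusted p = 0.210), with saline mouse 5 at 336 CPM below all FSH livers. Without saline mouse 5 its log2 fold change was -0.43 with an adjusted p of 0.00963 (limma). Serpina3g, an intracellular inhibitor of cathepsins, was at 4.15 and 4.14 CPM (-0.02) and Serpina3f at 1.62 and 1.75 CPM (-0.06). Of the 11 genes of the cluster, 5 more had too few reads to test and Serpina3j had none. Serpina3k made up 69.9% to 77.6% of the sum of Serpina3k, Serpina3m and Serpina3n with FSH and 75.0% to 80.6% with saline, so its share overlapped between the groups although its level did not.

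**Figure D4:**
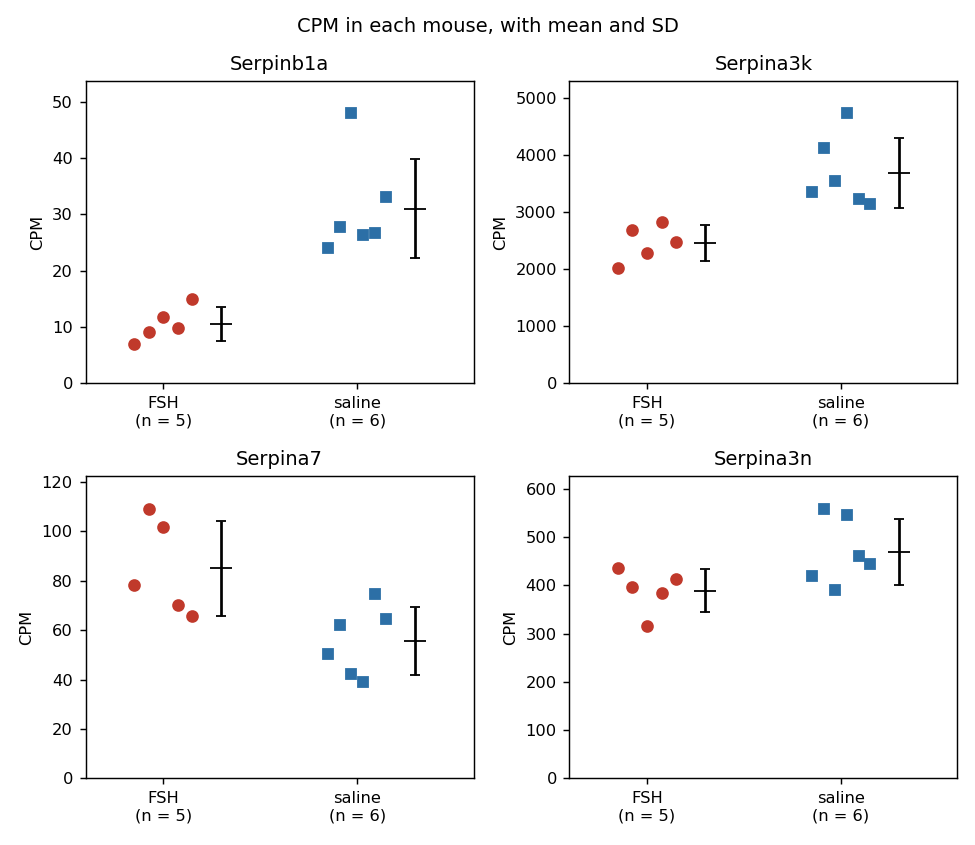
CPM of Serpinb1a, Serpina3k, Serpina7 and Serpina3n in each FSH liver (circles, n = 5, in the order of mice 1, 2, 3, 4 and 6) and saline liver (squares, n = 6, mice 1 to 6), with mean and SD in black and axes from 0. The groups do not overlap for Serpinb1a and Serpina3k, and they overlap for Serpina7 and Serpina3n.

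Serpina7, or thyroxine-binding globulin, carries thyroid hormone in plasma and inhibits no protease. It was at 78.4, 109, 102, 70.1 and 65.7 CPM in FSH mice 1, 2, 3, 4 and 6 and at 50.5, 62.1, 42.4, 39.1, 74.6 and 64.5 CPM in saline mice 1 to 6. The groups overlapped: saline mouse 5 was above FSH mice 4 and 6, and FSH mice 2 and 3 were the highest of all. The means were 85.0 ± 19.3 CPM (SD, n = 5) and 55.5 ± 13.8 CPM (SD, n = 6), with a log2 fold change of 0.62 (SE 0.18, limma adjusted p = 0.0361, exact permutation p = 0.0216). The call was lost when 1 of several mice was left out, with adjusted p values (limma) of 0.0686 without FSH mouse 1, 0.0889 without FSH mouse 2, 0.0962 without FSH mouse 3, 0.0640 without saline mouse 1, 0.0789 without saline mouse 3 and 0.0693 without saline mouse 4. The log2 fold change stayed between 0.52 and 0.71 in all 23 alternatives.

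The remaining expressed members of clade A were lower in sign and did not pass. Serpina12 (vaspin), described in adipose tissue as an insulin-sensitizing factor, was at 35.6, 12.2, 10.1, 10.01 and 11.1 CPM with FSH and 36.0, 19.2, 28.8, 33.7, 9.63 and 18.3 CPM with saline (log2 fold change -0.67, SE 0.35, limma adjusted p = 0.252). FSH mouse 1 was at the level of the highest saline mice, and saline mouse 5 was the lowest of all. Without FSH mouse 1 the log2 fold change was -1.01 (limma adjusted p = 0.0528). Adipocyte markers summed to 1.40 to 7.38 CPM with FSH and 1.43 to 4.29 CPM with saline, with Lep and Retn at 0 in all libraries. Most of that sum was Cidec (means 3.17 CPM with FSH and 2.49 CPM with saline). Adipoq (0 and 0.026 CPM), Plin1 (0.026 and 0 CPM) and Cfd (0.073 and 0.24 CPM) were near the floor. Serpina11 was at 93.5 and 113 CPM (-0.29, limma adjusted p = 0.145), and without FSH mouse 6, which was the highest of all livers at 126 CPM, it was at -0.40 with an adjusted p of 0.0178 (limma). Only 57.6% of its 100-base windows are its own, because the transcript Gm28577 covers the rest. Serpina10, the inhibitor that acts on factor Xa with protein Z, was at 195 and 211 CPM (-0.11, limma adjusted p = 0.332).

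None of the 6 expressed serpins of clotting, fibrinolysis and complement passed the test with limma, where 1 had an unadjusted p under 0.05, or with edgeR or voom, and DESeq2 called 1 of them, Serpinf2. Antithrombin (Serpinc1), the main inhibitor of thrombin, was at 2866, 2686, 3270, 3240 and 3199 CPM with FSH and 2821, 2977, 3115, 2736, 3354 and 2866 CPM with saline. The groups lay over each other, with a log2 fold change of 0.03 (SE 0.09, 95% interval -0.16 to 0.23, limma adjusted p = 0.864). C1 inhibitor (Serping1), which controls the first step of complement and the contact system, was at 713, 696, 618, 623 and 857 CPM with FSH and 641, 748, 744, 829, 819 and 683 CPM with saline (log2 fold change -0.09, SE 0.10, limma adjusted p = 0.645). FSH mouse 6 was the highest liver and FSH mice 3 and 4 the lowest.

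Alpha-2-antiplasmin (Serpinf2), the inhibitor of plasmin, was at 849 ± 37.0 CPM (SD, n = 5) in FSH livers and 988 ± 69.9 CPM (SD, n = 6) in saline livers (log2 fold change -0.22, limma adjusted p = 0.0960), and only saline mouse 5 (880 CPM) lay below the highest FSH liver. Its adjusted p was 0.0196 with DESeq2. Heparin cofactor II (Serpind1) was at 503 and 505 CPM (0.00, rounded from just below 0), and protease nexin-1 (Serpine2) at 2.39 and 3.38 CPM (-0.38, limma adjusted p = 0.307).

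Neither Serpinh1 nor Serpinf1, which inhibit no protease, passed with limma or voom, and edgeR and DESeq2 called Serpinh1. Serpinh1, also called HSP47, is the chaperone of collagen in the endoplasmic reticulum, and it was at 14.7, 17.4, 16.9, 20.4 and 15.4 CPM in FSH mice and 30.4, 22.9, 38.2, 15.5, 34.9 and 20.3 CPM in saline mice. Saline mice 1, 3 and 5 were well above all FSH livers, while saline mice 4 and 6 were within their range. The log2 fold change of -0.60 (SE 0.20) had a limma adjusted p of 0.0645, and without saline mouse 4 it was -0.74 with an adjusted p of 0.0114 (limma). Serpinh1 also passed with median-of-ratios scaling, array weights, edgeR and DESeq2 (adjusted p = 0.0498, 0.0275, 0.0333 and 0.00615), and its highest adjusted p over the 23 alternatives was 0.153, without FSH mouse 1. Serpinf1, or PEDF, a secreted factor that restrains vessel growth, was at 820 ± 40.5 CPM (SD, n = 5) in FSH livers and 738 ± 45.4 CPM (SD, n = 6) in saline livers (log2 fold change 0.15, limma adjusted p = 0.222).

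The 35 members under 0.5 CPM were not compared. Of them, 20 had no read in any library, and 15 had between 1 and 57 reads over all 11 libraries. The highest were Serpini1, or neuroserpin (57 reads, 0.369 CPM on average), Serpina9 (17 reads), Serpina3i (12 reads), Serpina3b (11 reads) and Serpina3h (11 reads). Among the members without a read were the Serpinb3 genes, Serpinb5 and Serpinb12, which are known from skin and other epithelia.

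Around the serpins, the proteases they inhibit and the cofactors of those proteases showed no call: of 40 genes listed, 39 were matched and 32 tested, and 0 passed with limma in either direction (median log2 fold change -0.01). At an unadjusted p under 0.05, 1 was higher and 2 were lower, and edgeR, voom and DESeq2 called 1, 1 and 2 of them. Limma called 1 when FSH mouse 6 or saline mouse 1 was left out. Of 25 tested inhibitors of other families, 2 rose and 3 fell with limma (20%, against the background of 10.6%). That count of 5 became 3 when FSH mouse 1, 3 or 4 or saline mouse 1, 3, 4 or 5 was left out. The murinoglobulin Mug1, a broad-range plasma inhibitor, fell by 0.75 on the log2 scale (890 CPM with FSH, 1487 CPM with saline, limma adjusted p = 0.00853), and the inter-alpha-inhibitor heavy chain Itih3 fell by 0.42 (limma adjusted p = 0.00913). Timp1, an inhibitor of matrix metalloproteinases, rose by 1.06 from a low level (0.364 to 1.27 CPM, limma adjusted p = 0.00688), and Hrg, histidine-rich glycoprotein, fell by 0.33 (limma adjusted p = 0.0375).

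In the list of acute-phase genes, the response to which Serpina3n belongs, calls went in 1 direction. Of 35 tested genes, 14 fell with limma, which is 40% against the background of 10.6% for calls in either direction, and their median log2 fold change was -0.39. The number that rose was 0 with limma, edgeR, DESeq2 and voom, and 0 were higher at an unadjusted p under 0.05. The number that fell was 9 when FSH mouse 1, 3 or 4 was left out, and 8 without a filter on low genes. Lbp, which binds lipopolysaccharide, had a log2 fold change of -1.01, Saa1, serum amyloid A, of -1.44, Hp, haptoglobin, of -0.66, and Lcn2, lipocalin 2, of -1.36 (limma adjusted p = 0.00167, 0.00314, 0.00386 and 0.0046). Among 20 genes known to be induced by glucocorticoids, 8 fell and 0 rose with limma (0 with edgeR, DESeq2 and voom too, and 1 at an unadjusted p under 0.05). Those that fell include Cdkn1a (-4.09), Ppp1r3c (-1.91), Zbtb16 (-2.62) and Klf9 (-1.03). These lists share Lcn2, Mt1 and Mt2. The acute-phase list also shares Itih3 and Itih4 with the inhibitors of other families, and Itih3 is counted as fallen in both. All these lists were written with results of these data known, so their counts are descriptions.

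In the set of genes for folding, secretion and clearance of serpins, 4 of 25 fell with limma, where 4.41% of all genes tested did. This list too was written with results of these data known, so the count is a description. The chaperones Calr and Hspa5, which hold newly made glycoproteins in the endoplasmic reticulum, fell by 0.79 and 0.99 (limma adjusted p = 0.00144 and 0.00455), and Sec24d, a part of the coat of vesicles leaving it, fell by 0.57 (limma adjusted p = 0.00973). P4ha1, a subunit of the enzyme that hydroxylates collagen prolines, fell by 0.76 (limma adjusted p = 0.0136).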

How the data were processed

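Liver RNA-seq libraries of 5 FSH and 6 saline mice were used. The authors deposited CPM (each gene's reads out of 1000000 in a library) for 36788 identifiers. The submitters' processing notes name FastQC 0.11.2, Trim Galore 0.3.3, cutadapt, STAR, RSEM and the build mm10, without roles, and the use of strand is not given in the sources used here. RNA came from papain-digested whole liver per the labels. All values (100%, tolerance 0.1) were whole multiples of what 1 read is worth, which gave the reads per gene. RSEM's expected counts need not be whole, so which tool counted the reads, and whether reads shared by gene copies were divided or dropped, is not known here. Symbols were matched by identifier without version (35555 named, 1233 unnamed).

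Where the mean over all libraries reached 0.5 CPM, log2(CPM + 0.5) was compared between groups using limma 3.58.1 and R 4.3.3 (eBayes with intensity trend, Benjamini-Hochberg over 12733 genes, 2-sided), checked on simulated data. Single genes were also compared with a 2-sided exact permutation test over all divisions of the libraries, with p values not adjusted. The thresholds are those of the study's methods. Every expressed serpin was to be named, and from the other lists up to 4 called genes with the smallest p, and some results, 1 expressed serpin among them, are not reported here. Cell type markers and pathway lists were written by hand (Klkb1 and the marker Tf were not matched). Members and lists were chosen with earlier results of these data known, and the promoter letters after the sequences had been seen. None of the 25 pairs of libraries within a group looked like a duplicate (lowest mean chi-square per gene 11.2). Alternatives were a replicate block, each mouse left out, other pseudocounts, filters and scalings, array weights, eBayes without trend, edgeR 4.0.16, DESeq2 1.42.0 and voom.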

Additional observations from a re-analysis of the deposited data

Results flagged for a closer look

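In 54 sets of values, each of 27 serpins in 1 of the 2 groups, the highest or lowest mouse was compared with the rest of its group by Dixon's ratio of gap to range, which chance exceeds in about 1 in 20 sets, and 2 sets exceeded it. Serpina12 was at 35.6 CPM in FSH mouse 1, where the other FSH mice were between 10.01 and 12.2 CPM. Serpina1e was at 46.0 CPM in FSH mouse 2, where the other FSH mice were between 9.80 and 12.9 CPM.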

How the results depend on the processing

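The count of 3 called serpins became 5 with array weights, 5 with a replicate block (a fit that also loses saline mouse 5, which has no partner) and 6 with DESeq2, and it was between 2 and 5 when 1 mouse was left out, with 5 without FSH mouse 6, where Serpina11 and Serpinb9 were added. Serpinb1a and Serpina3k were called in all 23 alternatives, and Serpinb1a alone passed both thresholds in each of them. Of 618 values of single serpins under an alternative, 581 kept their direction and their side of the threshold, 14 were newly called, 8 lost the call (all of Serpina7, including no filter and no intensity trend, adjusted p = 0.0678 and 0.0565) and 15 changed sign. Leaving out saline mouse 5 alone gave 4, with Serpina3m added, and the replicate block gave Serpina12 besides. The mouse numbers do not pair the animals: correlations of same-numbered mice ran from -0.07 to 0.36, and only mouse 2 correlated best with its own number. Serpina1e, not called in any fit, was at 0.11 with edgeR and 0.11 with DESeq2, and with 1 mouse left out between -0.47 and 0.075. Left-out mice also turned the sign of Serpind1 (-0.039 to 0.044), Serpina3g (-0.11 to 0.090) and Serpina3f (-0.16 to 0.054), all close to 0. The cause was not tested. TMM scaling moved the median of all genes from 0.02 to 0.00 on the log2 scale. Depth limits Serpina3f and Serpinb6b, and shared sequence limits the antitrypsin genes.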
